A study of Mus musculus with 12 samples.

Results

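Zona glomerulosa and angiotensin response genes were examined in whole adrenal glands of mice, as a set of 7 genes taken by symbol from a list of genes for aldosterone synthesis, angiotensin receptors and zone markers (Cyp11b2, Agtr1a, Agtr1b, Hsd3b6, Dab2, Cacna1h and Vsnl1). All 7 were among the 24421 genes of the deposited table, and all 7 had an average of the 2 group means of at least 10, as 14284 genes did. RNA was sequenced in 12 libraries of whole adrenals cleaned of fat, 4 from Abcg1 cKO, 4 from Abca1 cKO and 4 from control mice. According to the methods, the mice were 2-month-old females on a mixed sv129-C57BL/6 background. Abcg1 cKO mice carried 1 aldosterone synthase Cre allele and 2 conditional Abcg1 alleles, Abca1 cKO mice the same Cre and 2 conditional Abca1 alleles, and control mice, by the design given for the series, the Cre alone. The methods also count littermates with 1 of the conditional alleles as controls, so whether every control carried the Cre is not settled by these sources. The Cre sits in the Cyp11b2 locus, so that Cyp11b2, a member of the set, was read from a targeted locus in all cKO mice, and the number of intact Cyp11b2 alleles may differ between the groups compared. This Cre acts in cells that express Cyp11b2, and cells that descend from them keep the deletion. Whole glands also hold medulla, capsule, vessels and other cells, and fewer cells of a type cannot be told apart from less RNA per cell. Nor do whole glands show which layer a transcript came from, so the assignment of these genes to the glomerulosa is background and was not measured.

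The zona glomerulosa is the outer layer of the adrenal cortex and makes aldosterone, the hormone that makes the kidney retain sodium and excrete potassium. Angiotensin II and a raised plasma potassium concentration are its main stimuli. Angiotensin II binds type 1 receptors coupled to Gq, calcium enters and is released from stores, and calcium-dependent kinases and NR4A transcription factors raise transcription of the aldosterone synthase gene. Mice have a pair of type 1 receptor genes, Agtr1a and Agtr1b, where humans have a single gene.

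The values are the authors' mean normalized counts (reads per gene divided by a size factor for each library, then averaged), given for the 4 Abcg1 cKO libraries and for the 8 control and Abca1 cKO libraries as 1 combined group. Columns for individual libraries exist, but none could be tied to a sample by its name, and they were left out. So no value here has a spread between animals, no test was made, the depth of each library is unknown, and controls cannot be told apart from Abca1 cKO mice. A ratio is the log2 ratio of the means, Abcg1 cKO over combined, after adding a pseudocount of 1. A gene is said to be past the fold where this ratio exceeds 1.2 in either direction, the cutoff the study used for its fold changes, which is 0.26 on the log2 scale. The study also required a cutoff on the adjusted P-value, which was not applied here, so the counts are not those of the study. Past the fold does not mean larger than the variation between animals.

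Several of these genes have close relatives, and how far their reads can be told apart bears on the levels below. In each pair shown next, capitals mark the bases that differ between the relatives over the 60 aligned coding bases, inside 1 exon, that hold the most differences. Cyp11b2 and Cyp11b1, the synthase of corticosterone, lie near each other on the minus strand of chromosome 15 (mm10, GRCm38). The windows are in exon 3 of each gene, at chr15:74853815-74853874 for Cyp11b2 and chr15:74839246-74839305 for Cyp11b1, and differ at 24 of 60 bases.
Cyp11b2: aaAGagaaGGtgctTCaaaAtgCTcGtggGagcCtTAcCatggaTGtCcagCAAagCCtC
Cyp11b1: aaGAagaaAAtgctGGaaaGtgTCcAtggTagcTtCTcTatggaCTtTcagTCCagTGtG

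Hsd3b6 and Hsd3b1 encode 3-beta-hydroxysteroid dehydrogenases and lie on the minus strand of chromosome 3. Their windows, in exon 2 of Hsd3b6 (chr3:98810933-98810992) and exon 3 of Hsd3b1 (chr3:98857851-98857910), differ at 14 bases.
Hsd3b6: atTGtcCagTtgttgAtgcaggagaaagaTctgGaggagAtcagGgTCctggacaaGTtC
Hsd3b1: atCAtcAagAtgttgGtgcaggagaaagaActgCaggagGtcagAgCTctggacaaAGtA

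The receptors Agtr1a and Agtr1b have their coding sequence in a single exon each. The windows, in exon 3 of Agtr1a on the plus strand (chr13:30381917-30381976) and exon 2 of Agtr1b on the minus strand (chr3:20315418-20315477), differ at 13 bases.
Agtr1a: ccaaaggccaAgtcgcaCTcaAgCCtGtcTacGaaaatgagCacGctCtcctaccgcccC
Agtr1b: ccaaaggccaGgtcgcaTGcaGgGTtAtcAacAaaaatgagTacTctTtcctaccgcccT

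Over all aligned coding bases Cyp11b2 and Cyp11b1 were 87.9% identical, Hsd3b6 and Hsd3b1 90.0% and Agtr1a and Agtr1b 90.8%. The pairs differed more in how the identical bases were placed. The longest identical run was 66 bases for the receptors and 72 bases for the dehydrogenases, but 244 bases for the Cyp11b pair. This run covers coding bases 26 to 269 of both genes, in Cyp11b2 220 bases of exon 1 (chr15:74855987-74856206) and 24 bases of exon 2 (chr15:74855562-74855585). It is printed because a read that falls inside it fits both synthases equally.
Cyp11b2 and Cyp11b1: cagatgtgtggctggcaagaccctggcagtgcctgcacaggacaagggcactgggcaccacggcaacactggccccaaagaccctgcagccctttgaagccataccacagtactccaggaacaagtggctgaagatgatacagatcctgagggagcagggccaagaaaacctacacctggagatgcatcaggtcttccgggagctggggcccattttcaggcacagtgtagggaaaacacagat

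Of all 100-base windows of the main Cyp11b2 transcript (GENCODE release for GRCm38), 88.8% were found in no other gene, and each of the 171 shared windows was shared with Cyp11b1. For Hsd3b6 the share was 96.7%, with the shared windows in Hsd3b2 and Hsd3b3, and for Agtr1a, Agtr1b, Dab2 and Vsnl1 it was 100%. Cacna1h had 99.3%, and its 59 shared windows lie where Tpsg1 overlaps it on the opposite strand (158 exonic bases). The authors counted uniquely mapped reads, so a read pair with both ends inside shared bases would be left out and not split between the genes. How strand was used in counting was not stated in the sources, so Cacna1h reads in the overlap cannot be told apart from Tpsg1 reads. Over all its listed transcripts, Dab2 has 319 exonic bases inside the processed pseudogene Gm18888 on the opposite strand, and reads there have the same limit.

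**Figure D1:**
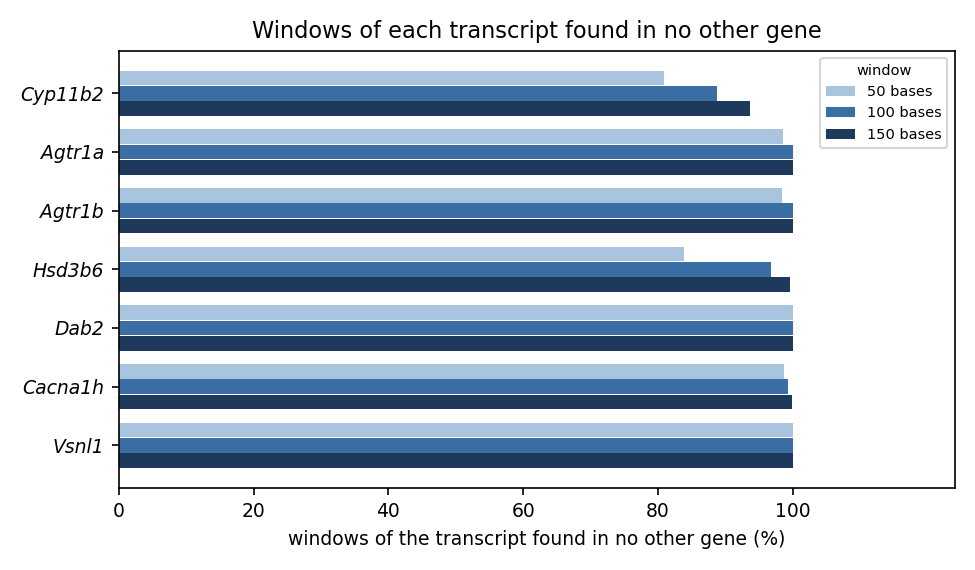
Share of the windows of the main transcript of each of the 7 genes that occur in no other gene (%, bars from 0), for windows of 50, 100 and 150 bases. Of the 7 genes shown, Cyp11b2 has the lowest share at 100 bases, 88.8%, against 96.7% for Hsd3b6 and 99.3% or more for the other 5.

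The targeted gene Abcg1 had an average count of 250 in Abcg1 cKO against 305 in the combined group, counted over the whole gene, of which Cre removes only exon 3. The resulting log2 ratio is -0.29. Abca1, which is disrupted in the Abca1 cKO libraries of the combined group, had means of 10057 and 7791.

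The 7 genes did not have a common direction. The mean of Agtr1a was higher in Abcg1 cKO adrenals, those of Cacna1h and Vsnl1 were lower, and Cyp11b2, Hsd3b6, Agtr1b and Dab2 lay within the fold. So 1 member was past the fold in the higher direction and 2 in the lower, 3 of 7, beside 10.6% of the 14284 genes past the filter in the higher and 12% in the lower direction. With so few members this count says little about the set as a whole. The median log2 ratio of the 7 genes was -0.13 and that of all genes past the filter 0.0021.

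Cyp11b2 (chr15:74851010-74856318), the aldosterone synthase, is the enzyme that sets the glomerulosa apart from the rest of the cortex. The average count was 3483 in Abcg1 cKO against 3163 in the combined group. This is a log2 ratio of 0.14, a mean 10.1% higher, and 45.2% of genes past the filter had a larger ratio in either direction. A difference in intact Cyp11b2 alleles between the groups cannot be told apart from this ratio. Reads of Cyp11b1 counted for Cyp11b2 by error were not measured either. Hsd3b6 (chr3:98805504-98814443) encodes the 3-beta-hydroxysteroid dehydrogenase of the mouse glomerulosa. Its means were 804 in Abcg1 cKO against 803 in the combined group, the closest pair among the 7 genes (log2 ratio 0.0018). The 2 enzymes of the set were thus within the fold.

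Among the receptors, Agtr1a (chr13:30336441-30382867) had a mean of 3663 in Abcg1 cKO against 3047 in the combined group, and Agtr1b (chr3:20314473-20367177) one of 357 against 391. Their log2 ratios were 0.27 and -0.13. Agtr1a lies barely past the fold, and falls within it when the group means are divided by their sums (log2 ratio 0.22). Agtr1a is the receptor of blood vessels as well as of the cortex, whereas Agtr1b in mice is best known from the adrenal. The mean of Agtr1a was 7.79 times that of Agtr1b in the combined group and 10.3 times in Abcg1 cKO. Per kilobase of exons, which removes the difference in length, these were 7.60 and 10.01 times. Of 5 vascular smooth muscle and pericyte markers 2 were higher past the fold, beside 10.6% of all genes past the filter. These were Acta2 at a log2 ratio of 0.64 and Tagln at 0.34. The others lay within the fold, Rgs5 at 0.23, Myh11 at 0.0075 and Pdgfrb at -0.07. The summed mean of the 5 was 4501 in Abcg1 cKO against 3722 in the combined group, and none was at 0. With the means divided by their sums without the ribosomal RNA gene Rn45s, 1 of the 5 was past the fold. The part of vessels in the Agtr1a value was not tested.

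Cacna1h (chr17:25374285-25433783, 35 exons) encodes the T-type calcium channel Cav3.2, through which weak depolarisation lets calcium into glomerulosa cells. The average count was 1581 in Abcg1 cKO against 2031 in the combined group. This was the lowest ratio of the set (log2 ratio -0.36, a mean 22.1% lower), and 14.1% of genes past the filter had a larger ratio in either direction. Vsnl1 (chr12:11325242-11436613) encodes visinin-like 1, a calcium sensor that is enriched in glomerulosa cells and is also made by neurons. Its means were 757 and 938 (log2 ratio -0.31), with 17.9% of genes having a larger ratio. Both calcium genes of the set were therefore past the fold in the lower direction.

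Dab2 (chr15:6299788-6440712), an endocytic adaptor whose protein serves as a marker of glomerulosa cells, had the highest counts of the set, with means of 9484 in Abcg1 cKO against 11308 in the combined group. The log2 ratio of -0.25 left it just inside the fold, while Agtr1a at 0.27 was just outside. When the group means were divided by their sums, Dab2 was past the fold at -0.30. Macrophages and endothelial cells also express Dab2. Of 5 macrophage markers 1 was lower past the fold (Cd68, log2 ratio -0.30), beside 12% of all genes past the filter. None was higher, with Csf1r at 0.13 and Mrc1 at 0.08. The summed macrophage mean was 4829 in Abcg1 cKO against 4759. No endothelial marker was past the fold (Emcn at -0.20, Plvap at -0.17, Pecam1 at -0.10, Cdh5 at -0.02 and Kdr at 0.03). The summed endothelial mean was 11506 against 12378, and no marker of either list was at 0. With sums without Rn45s as the scale, 1 endothelial marker was lower past the fold. The part of these cells in the Dab2 value was not tested.

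**Figure D2:**
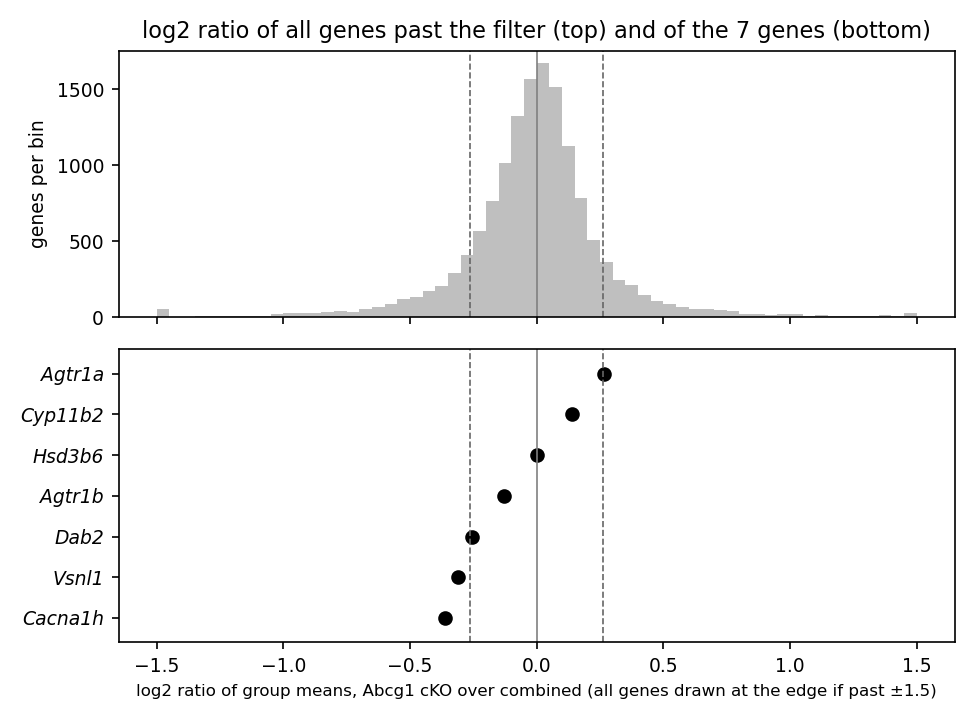
Top, number of genes in each bin of the log2 ratio of the means (Abcg1 cKO over combined group) for the 14284 genes past the filter, and bottom, the same ratio for the 7 genes. Dashed lines mark a fold of 1.2, and there are no error bars because only group means were used. Cacna1h at -0.36 and Vsnl1 at -0.31 lie left of the lines and Agtr1a at 0.27 on the right one.

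Levels can be compared between genes only per length. Per kilobase of exons, averaged over all 12 libraries, Dab2 had 2051 and Cyp11b2 2012, followed by Agtr1a with 1479. Vsnl1 with 449 and Hsd3b6 with 446 came next, then Cacna1h with 228 and Agtr1b with 177. In the combined group Dab2 (2168) stood above Cyp11b2 (1946), and in Abcg1 cKO Cyp11b2 (2143) stood above Dab2 (1818). Hsd3b6 (446 in both groups) likewise stood below Vsnl1 in the combined group (480) and above it in Abcg1 cKO (387). Without a spread it cannot be said whether these neighbours differed. The levels were also not corrected for bases shared with relatives. Of the 100-base windows, 88.8% for Cyp11b2 and 100% for Dab2 were found in no other gene. Reads left out for this would lower the level of Cyp11b2. Reads of the far more abundant Cyp11b1 assigned to Cyp11b2 by error would raise it. Neither was measured, so the place of Cyp11b2 beside Dab2 is not settled in either group or over all 12 libraries. The level of Hsd3b6 has the same limit, with Hsd3b1 far above it.

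**Figure D3:**
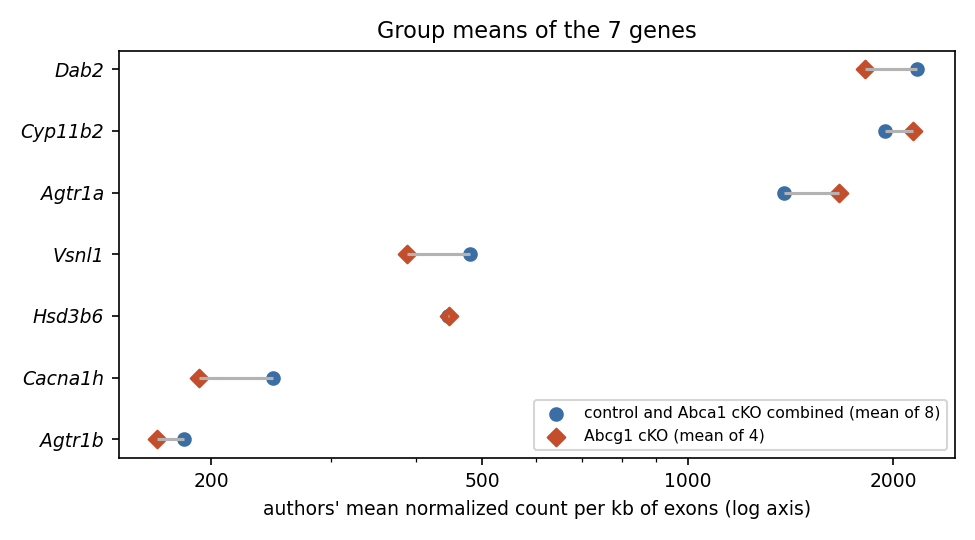
Authors' mean normalized count per kilobase of exons (log axis) of each gene, in the combined group of 8 libraries (circles) and in 4 Abcg1 cKO libraries (diamonds). Dab2 and Cyp11b2 are the most abundant, and Agtr1b has the lowest level in both groups (182 and 166 per kilobase).

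The glomerulosa enzymes are scarce beside their close relatives in a whole gland. Cyp11b1 was at 181059 in the combined group and 224762 in Abcg1 cKO, which per kilobase is 29.4 and 33.1 times Cyp11b2. The main Cyp11b1 transcript is listed with 3165 bases, of which 1503 are coding, so this factor depends on the annotation. Hsd3b1, the dehydrogenase of the whole cortex, was at 482180 and 434588 and stood at 583 and 525 times Hsd3b6 per kilobase. Its log2 ratio was -0.15. The median log2 ratio of 13 zona fasciculata and shared steroidogenic genes, these included, was 0.31. Past the fold, 9 were higher in Abcg1 cKO and none was lower, beside 10.6% and 12% of all genes past the filter. The count was 7 when the means were divided by their sums and 5 when Rn45s was left out of the sums. The largest ratios were those of Akr1b7 (0.79), an aldose reductase-like marker of the fasciculata, Mrap (0.61), the accessory protein of the ACTH receptor, and Star (0.44), which carries cholesterol into mitochondria. Hsd3b2 was at 3.29 and 0.459, under the filter. The study itself reported no effect of Abcg1 loss on transcripts of genes that directly carry out steroid conversions. The ratios here come from group means without a test and do not decide this.

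Of 11 further genes of the glomerulosa and its progenitors, 2 were higher past the fold and 3 lower. Over all genes past the filter, 10.6% were higher and 12% lower. Shh, the ligand that glomerulosa progenitors send to the capsule, was at 308 in Abcg1 cKO against 471 in the combined group (log2 ratio -0.61). Lef1, a transcription factor of Wnt signalling, was at 123 against 186 (log2 ratio -0.59), and Axin2, a Wnt target, had a ratio of -0.43. Wnt4 itself, which the glomerulosa secretes, was at 4946 against 4934. Lgr5 (0.22) and Ctnnb1 (0.11) had higher means in Abcg1 cKO, within the fold. The genes higher past the fold were Rgs2 (0.47) and Fst (0.51), the second from means of only 34.99 and 24.3. Rgs4, a regulator of G protein signalling in the glomerulosa, was within the fold at -0.24. The median of these genes was 0.0034 and turned to -0.04 when the means were divided by their sums, with 4 genes lower past the fold.

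Upstream of the receptors, 9 of 11 genes of the renin-angiotensin system passed the filter, and Ren1 and Mas1 were listed at 0 in both groups. Of the 9 genes 1 was higher past the fold and 2 lower, beside 10.6% and 12% of all genes past the filter. Counts this small say little about the list. Ace, which makes angiotensin II from angiotensin I, had means of 331 in Abcg1 cKO against 243 in the combined group (log2 ratio 0.44). Agt, the precursor angiotensinogen, was at 57.2 against 95.7 (-0.73), and Anpep, an aminopeptidase that trims angiotensin peptides, had a ratio of -0.37. Agtr2, the type 2 receptor, was at 631 against 668, within the fold.

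Downstream of the receptors, 7 of 24 genes of Gq, calcium and calmodulin signalling were higher past the fold and 1 was lower (Plcb3, log2 ratio -0.27). All genes past the filter had shares of 10.6% higher and 12% lower. The largest ratios in the list were those of Nr4a2 (1.57), Camk4 (1.15) and Nr4a1 (0.96). The NR4A genes encode nuclear receptors that bind the Cyp11b2 promoter and are induced within minutes by many stimuli. Nr4a2 was at 1323 in Abcg1 cKO against 445 in the combined group and Nr4a1 at 18172 against 9327, while Cyp11b2, as given above, lay within the fold. Itpr1, a calcium release channel of the endoplasmic reticulum, had a ratio of 0.35. The receptor-coupled G proteins Gnaq and Gna11 lay within the fold at 0.14 and 0.02. The median over the 24 genes was 0.11.

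Among 12 ion channels and pumps that set membrane voltage or calcium entry in glomerulosa cells, 11 passed the filter. Of these, 2 were higher past the fold and 2 lower, beside 10.6% and 12% of all genes past the filter. Such counts say little about the list. Kcnj5 (-0.61) and Cacna1i (0.44) had means under 50, and Cacna1c, the L-type channel Cav1.2, was at 3252 in Abcg1 cKO against 4456 (log2 ratio -0.45). The T-type Cacna1h and the L-type Cacna1c thus both had lower means, whereas Cacna1d, the L-type channel Cav1.3, was at 452 against 377 (log2 ratio 0.26, within the fold). The potassium leak channels Kcnk3 and Kcnk9, which hold glomerulosa cells hyperpolarised, had ratios of 0.20 and -0.19. Of 7 genes of mineralocorticoid action 4 passed the filter and none of these was past the fold (1 was lower when the means were divided by their sums), among them Nr3c2, the mineralocorticoid receptor, with a ratio of 0.03. Scnn1a, a subunit of the epithelial sodium channel, had a ratio of -0.24, the kinase Sgk1 one of 0.10 and Hsd11b2, which inactivates corticosterone, one of 0.05. With the means divided by their sums without Rn45s, 3 of the channels and pumps were lower past the fold and 2 higher.

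Markers of other cells also differed between the groups, where 10.6% of all genes past the filter were higher past the fold and 12% lower. All 5 medulla markers were higher past the fold, with a summed mean of 174927 in Abcg1 cKO against 128543 in the combined group, as were all 5 adipocyte markers (41739 against 18871) and both X-zone markers (35283 against 26690). The largest ratios among them were those of the catecholamine enzymes Pnmt (0.83) and Th (0.77) and of Chgb (0.42) in the medulla list, and of Car3 (1.62), Adipoq (1.47) and Fabp4 (0.88) in the adipocyte list. The X-zone markers Akr1c18 and Pik3c2g had ratios of 0.40 and 0.35. None of these markers was at 0, and with the means divided by their sums without Rn45s 4 medulla markers were past the fold. Of 6 capsule and fibroblast markers 1 was lower past the fold (Gli1, -0.44), while Col1a1 and Rspo3 were within it (0.15 and 0.11), with sums of 7573 and 7272. The ribosomal RNA gene Rn45s was at 116183 in Abcg1 cKO against 645559 in the combined group. Whether any of these moved with single libraries is not known from group means, and their part in the values of the 7 genes was not tested. Dividing the means by their sums over all genes gave 1199 genes higher and 2158 lower past the fold, in place of 1510 and 1707, and by their sums without Rn45s 996 and 2728.

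**Figure D4:**
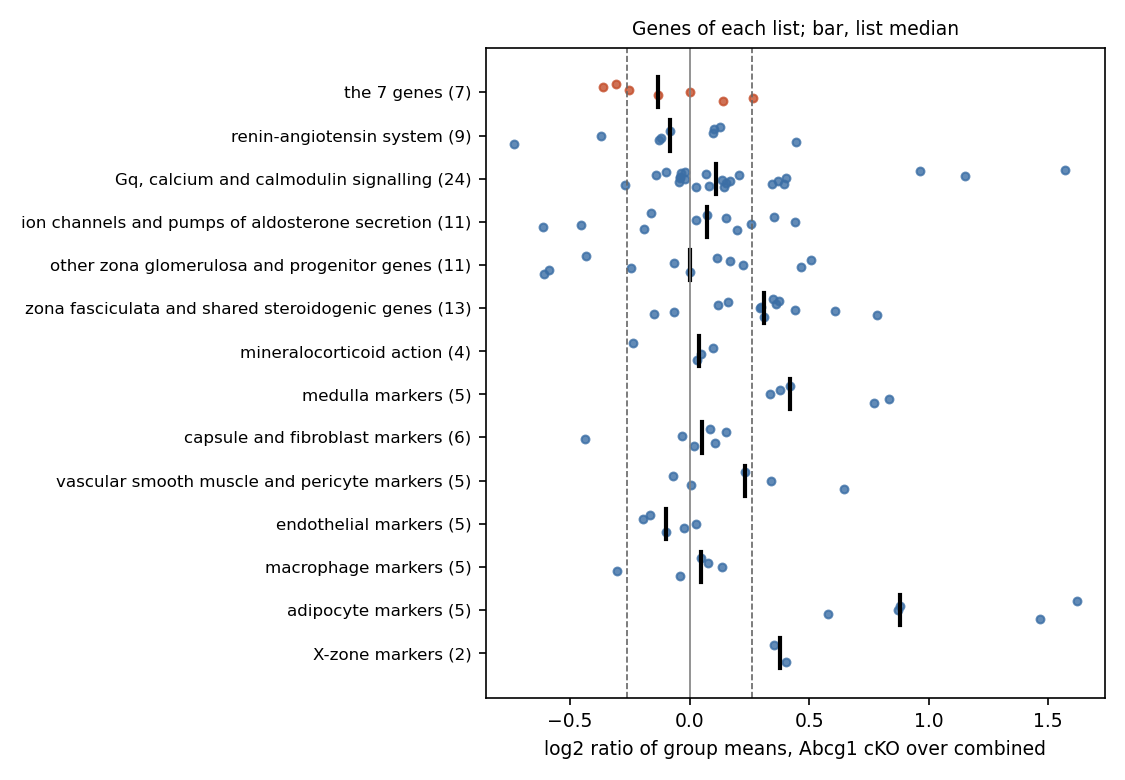
Log2 ratio of group means (Abcg1 cKO over combined) of every gene past the filter in each list, with the number of genes in parentheses, the list median as a black bar and a fold of 1.2 as dashed lines. The 7 genes (red) spread from -0.36 to 0.27 on both sides of 0. The list of zona fasciculata and shared steroidogenic genes has a median of 0.31, the medulla list 0.42 and the adipocyte list 0.88.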

How the data were processed

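RNA of whole adrenals was sequenced from 12 mice. The authors made stranded libraries after polyA selection. Sequencing used the NovaSeq and NextSeq platforms of Illumina, each with its own kit. The methods do not say which libraries ran on which platform. The part of the platform in the ratios of the group means was therefore not tested. By the authors' notes, adapters were removed with cutadapt 4.0, alignment to mm10 used STAR 2.7.10a, uniquely mapped reads were assigned to genes with HTSeq 0.13.5, and DESeq2 1.38.3 gave the normalization. The signal values used here are the authors' deposited mean normalized counts of each group and of all libraries. The 8 to 4 weighted average of the group means matched the mean over all libraries within 6.67e-05. A further 12 columns, 1 per library, could not be tied to samples by name and were left out. The table also holds the authors' fold changes, standard errors and p-values, which were not used.

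A pseudocount of 1 was added before log2 ratios were taken, over genes with an average of the 2 group means of at least 10 (Python 3.11.15, pandas 2.3.3). The calculation was tested on simulated data. The test designed for single libraries was not run. Positions, lengths and transcript sequences came from GENCODE vM21 (GRCm38), while the authors' gene models came from another annotation, so lengths may differ. Coding sequences were aligned with Biopython 1.88. The members and lists were chosen with earlier results of these data known. Named genes were the 7 members, up to 3 genes of each list with the largest absolute ratios past the filter, close relatives and the targeted genes. Wnt4, Axin2, Rgs2, Rgs4, Agtr2, Plcb3, Itpr1, Gnaq, Gna11, Cacna1d, Kcnk3, Kcnk9, Nr3c2 and Rn45s were named after their values were seen. So were Lgr5, Ctnnb1, Myh11, Pdgfrb, Cdh5 and Kdr.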

Additional observations from a re-analysis of the deposited data

How the results depend on the processing

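No paired analysis was possible because the columns of single libraries match no sample label and only group means were used. For the same reason no library could be left out, no refit against control alone was made, and the planned test over single libraries was not run. Of 35 ratios of members under alternatives, 31 kept their side of the fold and, except for Hsd3b6, all kept their direction. Hsd3b6, within the fold throughout, lay between -0.09 and 0.0018. The exceptions came from rescaling. Agtr1a fell within the fold when the means were divided by their sums over all genes (log2 ratio 0.22) or without Rn45s, an alternative chosen after seeing the data (0.18), so that 0 members were higher. Dab2 moved past it under both (-0.30 and -0.34). These scalings shifted all genes by a median of -0.04 and -0.09, which is their construction. At a fold of 1.5 there were 0 members past it in either direction, and 2.695% of genes were higher and 3.10% lower. Of all genes, 18.6% were lower with no filter on low values and 6.44% with an average of 100 or more. With sums without Rn45s 6.97% were higher and 19.1% lower. Cacna1h and Vsnl1 were past the fold of 1.2 under all 5 alternatives of scaling and pseudocount. These alternatives could hardly have given another result. Both divisions by sums lower the ratios, and the pseudocounts and the centring barely move means of this size.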

Other observations

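Values of the other genes of 2 families were looked at after the member values had been seen. Among genes for the pore-forming subunits of voltage-gated calcium channels, Cacna1c had the highest mean in both groups (3252 in Abcg1 cKO against 4456 in the combined group), followed by Cacna1h (1581 and 2031). Cacna1b, the N-type channel found in neurons and chromaffin cells, was at 153 against 126 (log2 ratio 0.28), and Cacna1a, the P/Q-type channel, at 90.5 against 93.3. The T-type relative Cacna1g was at 4.44 against 9.19, under the filter.

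In the Hsd3b family, Hsd3b7, which acts on bile acid precursors, was at 1350 against 1265 (log2 ratio 0.09). Hsd3b3 and Hsd3b5 were listed at 0 in Abcg1 cKO and at 1.62 and 0.287 in the combined group, and Hsd3b4 was listed at 0 in both.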
